A study of Bos taurus with 11 samples.

Results

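Keratin genes were examined in mammary parenchyma, the epithelial tree with its supporting tissue, of female Holstein calves fed milk replacer on 2 planes before weaning. Members were all genes whose array probe set carried exactly 1 symbol made of KRT, a number and an optional letter from A to C. They came to 52 genes on 53 of the 26773 probe sets of the array. KRT20 had 2 probe sets and was represented by the brighter one. Daily milk replacer was 8.4 L (range 6 to 12 L) in 3 meals for the 6 elevated calves, which supplied 5.9 ± 0.2 Mcal (mean ± SE) of metabolisable energy. It was 4 L in 2 meals for the 5 restricted calves, which supplied 2.8 ± 0.2 Mcal. Meal number therefore cannot be told apart from supply. All had free access to starter grain from day 18, and all were killed at 54 ± 2 days. A further restricted calf, with a gland too small to part from its fat pad, was not sampled, so the restricted group lacks its least developed gland.

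Keratins are the intermediate filament proteins of epithelial cells, and a filament needs a type I and a type II keratin as partners. In the mammary gland KRT8 and KRT18, with KRT7 and KRT19, mark the luminal cells that line the ducts, while KRT5 and KRT14, with KRT17 and KRT15, mark the basal layer. Other keratins belong to the outer epidermis, the oral mucosa and cornea, or the hair follicle and hair shaft. The genes were grouped on this textbook basis into 4 luminal, 4 basal, 9 skin, 5 mucosa and cornea, 24 hair and 5 other keratins, and KRT89 stood in none of these lists.

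Values are log2 signals, on which a gap of 1 is a 2-fold difference, and differences are elevated minus restricted. The signal of a probe set also depends on its probes, so no order is drawn between the levels of different genes. Array medians lay between 6.37 and 6.45. The mean of 15 adipocyte markers was 7.11 to 8.77 in elevated calves, against 8.19 to 8.55 in restricted calves 1, 3 and 5, and restricted 2 and restricted 4 stood apart at 10.33 and 9.83. Elevated 5 stood apart in 17 mitosis markers, with a mean of 5.71 against 7.94 to 8.57 in the other 10 calves. Luminal markers that are not keratins (EPCAM, CDH1, GATA3 and others, 15 in all) averaged 8.79 to 9.50 in elevated and 7.10 to 9.14 in restricted calves. These values were lowest in restricted 2. With no other tissue beside them, they cannot test the epithelial label of the tissue.

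Luminal keratins averaged higher in elevated calves in all 4 cases, and basal, skin and hair keratins showed no common direction. None of the 52 keratins passed limma at an adjusted p under 0.05 over all probe sets, where the background share was 0.00747%. At an unadjusted p under 0.05 there were 3 keratins, all higher in elevated calves (KRT18, KRT8 and the hair follicle keratin KRT71), against a background of 10.3% in either direction and 4.95% for higher values. An unmoderated test with unequal variances and the same adjustment gave 0 as well. The groups overlapped at every keratin, where 1.28% of all probe sets did not overlap. The median difference was 0.83 for the luminal list, 0.23 for the basal list, -0.013 for skin, -0.0028 for mucosa and cornea and 0.0082 for hair keratins, beside 0.0031 over all probe sets.

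**Figure D1:**
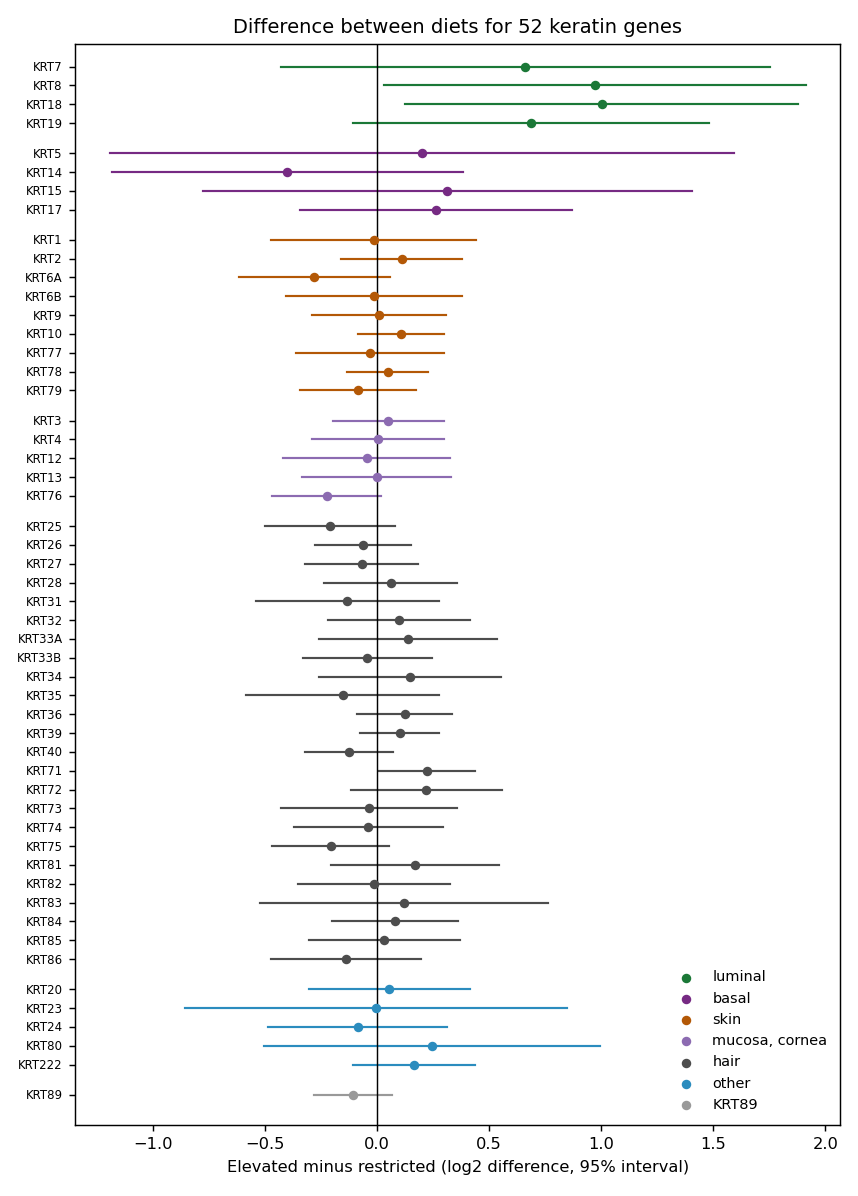
Log2 difference, elevated minus restricted, for each of the 52 keratin genes (points), with limma's 95% interval (lines), grouped by list. The 4 luminal keratins lie between 0.66 and 1.00, and the 44 genes outside the luminal and basal lists lie between -0.28 and 0.24.

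KRT18, the type I keratin of luminal cells, had signals of 8.85, 8.02, 8.79, 7.81, 8.08 and 8.84 in elevated calves 1 to 6, against 8.08, 5.86, 7.99, 7.01 and 8.04 in restricted calves 1 to 5. Elevated calves 1, 3 and 6 stood above every restricted calf, and restricted 2 and restricted 4 were the lowest of all. Elevated calves averaged 8.40 ± 0.48 (SD, n = 6) and restricted calves 7.40 ± 0.97 (SD, n = 5). The log2 difference was 1.00 ± 0.40 (SE; limma adjusted p = 0.431). Without restricted 2 the difference was 0.62, and without restricted 2 and restricted 4 it was 0.36.

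KRT8, the type II partner of KRT18, had signals of 7.04, 5.95, 7.29, 6.10, 5.58 and 7.19 in elevated calves 1 to 6, against 6.55, 4.44, 5.75, 4.92 and 6.10 in restricted calves 1 to 5. Elevated calves 1, 3 and 6 were the highest, as for KRT18, and restricted 2 and restricted 4 again the lowest. Its log2 difference was 0.97 ± 0.43 (SE; limma adjusted p = 0.473), and 0.39 without restricted 2 and restricted 4. In the RefSeq gene table of the ARS-UCD2.0 assembly KRT8 and KRT18 are next to each other, and KRT18 is the type I keratin that lies among the 26 members on the chromosome of the type II genes. The other 25 members with a gene number lie together on another chromosome.

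KRT19, a type I luminal keratin that lacks the tail domain of other keratins, had signals of 12.10, 11.79, 12.08, 11.36, 11.68 and 12.26 in elevated calves, against 11.74, 9.63, 11.76, 11.03 and 11.79 in restricted calves. Restricted 2 lay more than 1 unit below the next calf, while the 3 restricted calves other than 2 and 4 lay within the elevated range. The log2 difference was 0.69 ± 0.36 (SE; limma adjusted p = 0.555), 0.30 without restricted 2 and 0.11 without both calves. KRT7, the type II keratin of simple epithelia, had signals of 10.23, 9.47, 10.07, 9.02, 8.33 and 10.14 in elevated calves, against 9.72, 7.14, 9.39, 8.47 and 9.68 in restricted calves. Its lowest elevated value was that of elevated 5, below 4 of the 5 restricted calves. KRT7 differed by 0.66 ± 0.50 (SE; limma adjusted p = 0.683), by 0.23 without restricted 2 and by -0.054 without restricted 2 and restricted 4. In tissue of mixed cells, fewer luminal cells and less keratin RNA per luminal cell cannot be told apart.

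**Figure D2:**
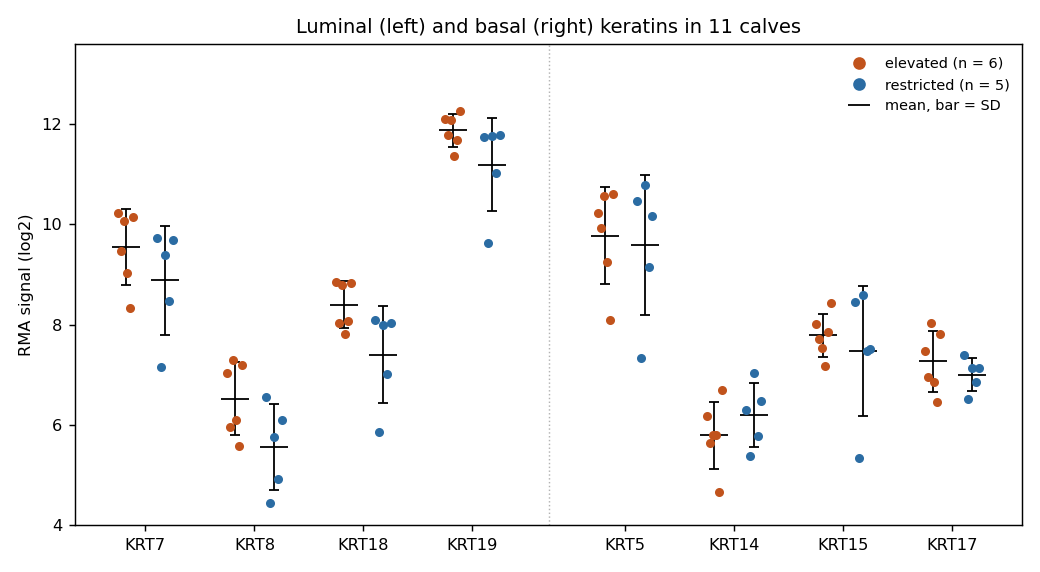
RMA signal (log2) of the 4 luminal and 4 basal keratins, 1 point per calf, with the mean and SD of each diet. The lowest restricted point of each luminal keratin is restricted 2, and KRT14 is the basal keratin whose elevated mean (5.79) lies below its restricted mean (6.19).

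Basal keratins varied as widely between calves but did not share a direction. KRT5, the type II keratin of basal cells, had signals of 10.23, 9.93, 10.56, 9.25, 8.08 and 10.60 in elevated calves, against 10.46, 7.33, 10.79, 9.15 and 10.16 in restricted calves. The lowest value of each diet belonged to elevated 5 and restricted 2. KRT5 differed by 0.20 ± 0.63 (SE; limma adjusted p = 0.938), with a 95% interval from -1.19 to 1.59, and its sign turned when restricted 2 was left out (-0.36). KRT14, its type I partner, had signals of 6.18, 5.64, 5.79, 5.79, 4.66 and 6.69 in elevated calves, against 6.29, 5.38, 7.04, 5.78 and 6.48 in restricted calves. Elevated 5 was the lowest calf and restricted 3 the highest. KRT14 differed by -0.40 ± 0.36 (SE; limma adjusted p = 0.741), and by -0.17 without elevated 5 and -0.60 without restricted 2.

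KRT15, a type I keratin of basal keratinocytes, had signals of 8.01, 7.71, 7.52, 7.17, 7.86 and 8.43 in elevated calves, against 8.45, 5.34, 8.58, 7.47 and 7.50 in restricted calves. Restricted 2 stood more than 1 log2 unit below every other calf, restricted 4 included. The difference was 0.31 ± 0.50 (SE; limma adjusted p = 0.861), and -0.22 without restricted 2. KRT17, a type I keratin of basal and myoepithelial cells, had signals of 7.47, 6.95, 8.04, 6.86, 6.45 and 7.81 in elevated calves, against 7.38, 6.51, 7.13, 6.85 and 7.13 in restricted calves. It differed by 0.26 ± 0.28 (SE; limma adjusted p = 0.782), and restricted 2 fell within the elevated range. Over left-out calves KRT17 differed by 0.11 (without elevated 3) to 0.42 (without elevated 5), and by 0.048 without restricted 2 and restricted 4. Without restricted 2 and restricted 4 the median of the basal list was -0.54, and that of the luminal list 0.24. Basal markers that are not keratins, 10 in all (TP63, MYH11, OXTR and others), had a median difference of -0.027, and their means ran from 9.07 to 9.28 in elevated and from 8.59 to 9.40 in restricted calves. The 15 luminal markers that are not keratins had a median difference of 0.81, with 13 of them higher. The 2 lower ones were ELF5 (-0.28) and MUC1 (-0.28).

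The difference of 2 keratin signals within a calf was then compared between diets, which asks whether both changed alike. The 2 pairs tested were chosen with earlier results of these data known, so their p-values are descriptive. Adjustment covers these 2 pairs and not all 16 luminal minus basal pairs, of which KRT18 minus KRT14 differs most. KRT18 minus KRT14, the type I pair, was 2.67, 2.38, 3.00, 2.02, 3.42 and 2.15 in elevated calves 1 to 6, against 1.80, 0.48, 0.95, 1.24 and 1.56 in restricted calves 1 to 5. Every elevated calf stood above every restricted calf. Elevated calves averaged 2.61 ± 0.53 (SD, n = 6) and restricted calves 1.21 ± 0.52 (SD, n = 5), so the ratio of KRT18 to KRT14 signal was 2.64-fold higher in elevated calves (log2 difference 1.40; exact two-sided permutation p = 0.00216, the smallest that the splits of 11 calves allow, and 0.00433 adjusted over the 2 pairs). Leaving out single calves gave 1.22 to 1.55 with adjusted exact p of 0.00952 to 0.0159. Without restricted 2 and restricted 4 the difference was 1.17 (adjusted exact p = 0.0238). Each of these p-values is the smallest that its splits allow, since leaving out calves cannot undo the separation, so they only restate it. For comparison, 2.88% of all probe sets gave no overlap when subtracted from KRT18, and 0.478% gave none when KRT14 was subtracted from them.

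KRT8 minus KRT5, the type II pair, was -3.19, -3.98, -3.27, -3.15, -2.51 and -3.42 in elevated calves, against -3.91, -2.89, -5.04, -4.23 and -4.06 in restricted calves. The groups overlapped through elevated 2 and restricted 2. Elevated calves averaged -3.25 ± 0.48 (SD, n = 6) and restricted calves -4.03 ± 0.77 (SD, n = 5), with a difference of 0.77 (exact two-sided permutation p = 0.0758, also after adjustment over the pairs). Without restricted 2 it was 1.06 (adjusted exact p = 0.0143) and without elevated 2 it was 0.92 (adjusted exact p = 0.0397). These are the calves through which the groups overlapped. Over all single calves left out it ran from 0.52 to 1.06, with adjusted exact p of 0.0143 to 0.167. Over all 16 luminal minus basal pairs, added after the values were seen and described without a test, the difference was above 0 in 16, from 0.35 for KRT7 minus KRT15 to 1.40 for KRT18 minus KRT14. These pairs share members, and each luminal difference lay above each basal one, so the count follows from the single differences. KRT8, KRT18 and KRT19 each gave no overlap when KRT14 was subtracted, and no other pair did. The mean signals of KRT14 (5.97) and KRT8 (6.08) lay below 6.43, the median of all probe sets, and those of the other 6 luminal and basal keratins above it. Such ratios show unequal change and do not say which of the 2 keratins changed.

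**Figure D3:**
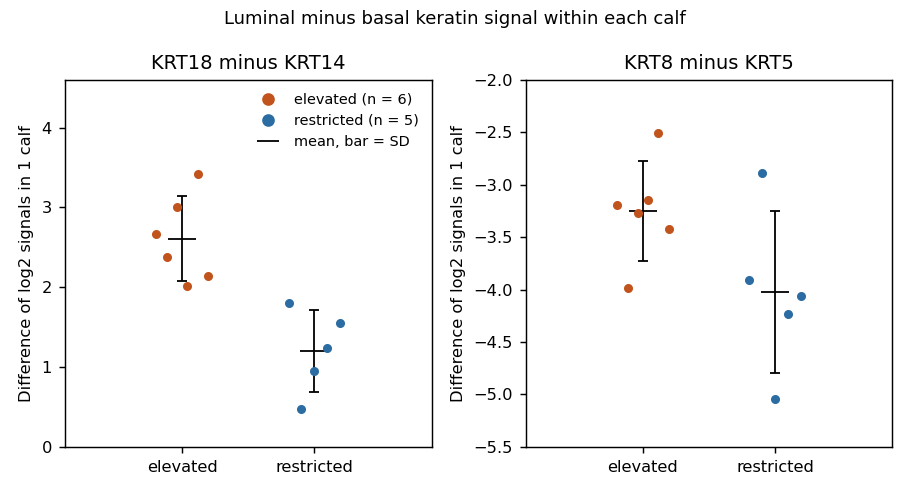
Difference of 2 log2 signals within each calf, KRT18 minus KRT14 (left) and KRT8 minus KRT5 (right), with the mean and SD of each diet. On the left the lowest elevated calf (2.02) is above the highest restricted calf (1.80), and on the right restricted 2 (-2.89) lies among the elevated calves.

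Relations across the 11 calves were computed for 8 pairs of measures, with permutation p-values from 100000 resamples and adjustment over the 8. The filament partners of luminal cells followed each other. KRT8 with KRT18 gave Pearson r = 0.93 (permutation p = 6e-05, adjusted 0.00024) and Spearman rho = 0.83 (permutation p = 0.00221, adjusted 0.00635), and r = 0.91 without the 2 calves farthest from the median, elevated 3 and restricted 2. KRT5 with KRT14, the basal partners, gave r = 0.79 (permutation p = 0.00286, adjusted 0.00458) and rho = 0.84 (permutation p = 0.00238, adjusted 0.00635), and r = 0.68 without elevated 5 and restricted 2. KRT1 with KRT10, the partners of the outer epidermis, gave r = -0.33 (permutation p = 0.337) and rho = -0.26 (permutation p = 0.436), with the same values after adjustment and r = -0.18 without restricted 2 and restricted 3. Deviations from the diet means correlated at 0.89 for the luminal, 0.87 for the basal and -0.35 for the epidermal partners. They correlated at 0.89 for KRT18 with KRT5 too, which are not partners.

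KRT18 with KRT5 gave r = 0.77 (permutation p = 0.00945, adjusted 0.0126) and rho = 0.58 (permutation p = 0.0665, adjusted 0.0887). Its r was 0.40 without restricted 2 and restricted 4, so the relation over both diets pooled was weaker without those calves. The mean of the adipocyte markers with KRT18 gave r = -0.93 (permutation p = 0.00025, adjusted 0.000667) and rho = -0.81 (permutation p = 0.00389, adjusted 0.00778), and r = -0.75 without the same calves. With KRT5 the adipocyte mean gave r = -0.70 (permutation p = 0.0184, adjusted 0.021) and rho = -0.52 (permutation p = 0.107, adjusted 0.122). Its r was -0.34 without restricted 2 and restricted 4, so this pooled relation too was weaker without those calves. Between diets the adipocyte markers had a median difference of -1.08, with 14 of 15 lower in elevated calves. Their part in the luminal keratin difference was not tested.

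KRT18 followed the mean of the luminal markers that are not keratins, with r = 0.97 (permutation p = 1e-05, the smallest these resamples give, adjusted 8e-05) and rho = 0.99 (permutation p = 1e-05, adjusted 8e-05), and r = 0.93 without restricted 2 and restricted 4. KRT5 followed the basal markers that are not keratins, with r = 0.88 (permutation p = 0.00037, adjusted 0.00074) and rho = 0.79 (permutation p = 0.00555, adjusted 0.00888), and r = 0.76 without restricted 1 and restricted 2.

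**Figure D4:**
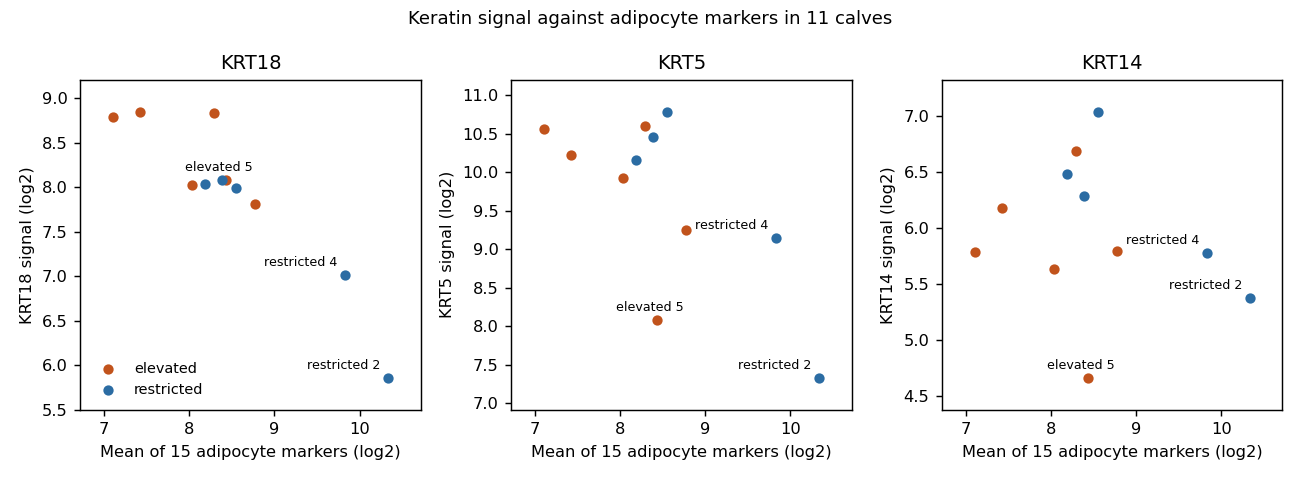
Signal (log2) of KRT18, KRT5 and KRT14 against the mean of 15 adipocyte markers (log2), 1 point per calf. Restricted 2 and restricted 4 lie at the right with the lowest KRT18, while elevated 5 has low KRT5 (8.08) and KRT14 (4.66) at an adipocyte mean of 8.44.

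Skin keratins varied little between calves. The spread within diets, as a pooled SD, was 0.67 to 0.92 for the luminal and 0.51 to 1.18 for the basal keratins. It was 0.12 to 0.38 (median 0.23) for the skin and 0.18 to 0.30 (median 0.23) for the mucosa and cornea keratins. For the hair keratins it was 0.12 to 0.54 (median 0.26), beside a median of 0.22 over all probe sets. The lists overlapped here, with the hair keratin KRT83 (0.54) above the basal keratin KRT17 (0.51). None of the 44 keratins outside the luminal and basal lists had a mean signal above 6.43, and RMA compresses differences of such dim probe sets. KRT1, the type II keratin of the outer epidermis, had signals of 5.40 to 5.84 (median 5.50) in elevated calves, against 5.71, 4.96, 6.34, 5.19 and 5.54 in restricted calves, and differed by -0.016 ± 0.21 (SE). KRT10, its type I partner, lay between 3.30 and 3.69 in elevated and between 3.34 and 3.60 in restricted calves and differed by 0.11. KRT2, of the uppermost living epidermis, differed by 0.11, and KRT6B, induced in wounded skin, by -0.013. KRT6A, also a wound keratin, differed by -0.28 ± 0.15 (SE; limma adjusted p = 0.564) at signals of 1.91 to 2.96, near the lowest of the array (1.08).

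Mucosal and corneal keratins had differences from -0.23 to 0.049. KRT76, of the oral palate, differed by -0.23 ± 0.11 (SE; limma adjusted p = 0.521), with signals of 4.24 to 4.74 (median 4.64) in elevated calves against 4.86, 4.82, 4.79, 4.55 and 5.03 in restricted calves. Of these restricted calves, 4 lay above every elevated calf and restricted 4 among them. The cornea keratins KRT3 and KRT12 differed by 0.049 and -0.047, and KRT4, of the oesophageal lining, by 0.0052.

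Hair keratins split evenly, 12 higher and 12 lower, with differences from -0.21 to 0.22. KRT71, a type II keratin of the inner root sheath of the hair follicle, had signals of 4.99, 4.93, 4.96, 4.84, 5.33 and 4.96 in elevated calves, against 4.82, 4.94, 4.74, 4.58 and 4.81 in restricted calves. Only restricted 2 reached the elevated range, and elevated 5 was the highest calf. It differed by 0.22 ± 0.10 (SE; limma adjusted p = 0.471). KRT75, of the companion layer of the follicle, differed by -0.21 and KRT25, of the inner root sheath, by -0.21. The hair shaft keratins KRT35 and KRT31 differed by -0.15 and -0.13, and KRT31 by 0.00027 without elevated 5. Near-identical genes such as KRT6A and KRT6B, KRT33A and KRT33B, or KRT81, KRT83 and KRT86 may share probes, so their separate values are uncertain.

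Among the other keratins, 2 varied between calves more than any skin or hair keratin did (pooled SD within diets 0.63 for KRT80 and 0.72 for KRT23). KRT80, found in many epithelia, had signals of 7.14, 6.28, 6.13, 6.10, 5.66 and 6.59 in elevated calves, against 6.52, 5.15, 6.30, 5.44 and 6.95 in restricted calves. As with KRT8, KRT18 and KRT19, restricted 2 and restricted 4 were the lowest, and the difference of 0.24 ± 0.34 (SE; limma adjusted p = 0.839) became -0.27 without them. KRT23, a type I keratin, had signals of 4.94, 4.90, 6.25, 4.46, 3.90 and 5.15 in elevated calves, against 5.01, 5.48, 3.88, 5.04 and 5.29 in restricted calves, with a difference of -0.0066 ± 0.39 (SE). Its highest calf was elevated 3, and restricted 2 was not low. KRT24 differed by -0.087 and KRT222 by 0.16. The 2 probe sets of KRT20, a keratin of gut lining, differed by 0.053 (the one used) and -0.18, so they disagreed in sign at signals below 4. KRT89 differed by -0.11 (limma adjusted p = 0.677).

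Genes that anchor or accompany keratin filaments were then read from lists. Of 22 desmosome, plakin, hemidesmosome and keratin-organising genes, 0 passed limma over all probe sets. At an unadjusted p under 0.05 there were 5, all higher in elevated calves, against a background of 4.95% for higher values. The median difference was 0.21 with 19 higher. Skeletal muscle markers also averaged higher in elevated calves (14 of 14, median 0.71, 7 at an unadjusted p under 0.05, list means of 5.57 to 7.25 in elevated and 5.31 to 5.96 in restricted calves), and their part in the anchor and filament differences was not tested. The anchor median was 0.046 without restricted 2 and restricted 4. PPL, the gene of periplakin, which links keratin filaments to the cell edge, had signals of 7.84, 7.78, 7.69, 7.14, 8.54 and 7.86 in elevated calves, against 7.00, 7.04, 6.99, 7.07 and 7.07 in restricted calves. No elevated calf reached down to the restricted calves, which spanned less than 0.1 units, restricted 2 and restricted 4 included. PPL was the 1 gene of the 22 without overlap, beside 1.28% of all probe sets, and was named for its small p. PPL differed by 0.78 ± 0.19 (SE; limma adjusted p = 0.262), and over left-out calves by 0.63 to 0.91 (limma adjusted p of 0.0587 to 0.423). The smallest of these p-values came without elevated 4, the elevated calf nearest the restricted calves.

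PLEC, the gene of plectin, a linker of intermediate filaments, differed by 0.44 ± 0.14 (SE; limma adjusted p = 0.353). Its signals were 7.76 to 8.37 in elevated calves (median 7.95), against 7.09, 7.80, 7.62, 7.69 and 7.59 in restricted calves. The groups overlapped only through elevated 3 and restricted 2. ITGB4, the integrin chain of hemidesmosomes to which basal keratins attach, differed by 0.58 ± 0.19 (SE; limma adjusted p = 0.353). It had 8.69 to 9.87 in elevated calves (median 9.31), against 8.88, 8.29, 8.78, 8.61 and 8.89 in restricted calves.

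Among 8 other intermediate filament genes the nuclear lamin gene LMNA, of lamin A/C, stood first. Its signals were 10.49, 10.40, 10.48, 10.32, 10.79 and 10.56 in elevated calves, against 9.90, 10.27, 10.03, 10.05 and 9.92 in restricted calves. LMNA was the 1 gene of the 8 at which the groups did not overlap, beside 1.28% of all probe sets. Restricted 2 was the highest restricted calf and elevated 5 the highest of all. The difference was 0.47 ± 0.10 (SE; limma adjusted p = 0.188). It was 0.42 to 0.53 over left-out calves and 0.56 without restricted 2 and restricted 4. NES, the gene of nestin, differed by -0.45 ± 0.22 (SE; limma adjusted p = 0.517), and by -0.27 without elevated 5. GFAP, the filament of glia, differed by 0.20, and by 0.024 without elevated 5. The median of the 8 was 0.13, and 0 passed limma.

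Genes of skin and hair other than keratins gave no member past the threshold. Of 20 keratin-associated protein genes of the hair shaft, 12 were higher, the median was 0.055 and 0 had an unadjusted p under 0.05. Their smallest p belonged to KRTAP10-11 (difference 0.24), KRTAP16-1 (0.19) and KRTAP9-1 (0.27). Of 17 genes of the cornified layer of skin, 13 were lower in elevated calves, with a median of -0.10 and 2 at an unadjusted p under 0.05, against a background of 5.33% for lower values.

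TGM5, a transglutaminase that cross-links cornified proteins in skin, had signals of 4.44, 4.29, 4.36, 6.11, 5.21 and 4.79 in elevated calves, against 5.89, 8.86, 6.53, 7.44 and 5.71 in restricted calves. Restricted 2 and restricted 4, the calves with the highest adipocyte markers, were also the highest here, and elevated 4 was the elevated calf that reached the restricted range. TGM5 differed by -2.02 ± 0.54 (SE; limma adjusted p = 0.293), and by -1.18 without restricted 2 and restricted 4. TGM3, a related enzyme of hair and epidermis, had its highest value in restricted 2 as well (6.96) and differed by -0.65 ± 0.30 (SE; limma adjusted p = 0.4996), by -0.32 without restricted 2 and by -0.16 without restricted 2 and restricted 4. SBSN, the gene of the epidermal protein suprabasin, differed by -0.54 ± 0.17 (SE; limma adjusted p = 0.337), with 4.20 to 4.62 in elevated calves (median 4.49) against 4.97, 4.73, 5.37, 4.51 and 5.45 in restricted calves. Here restricted 4 was the lowest restricted calf, and the difference without restricted 2 and restricted 4 was -0.80.

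**Figure D5:**
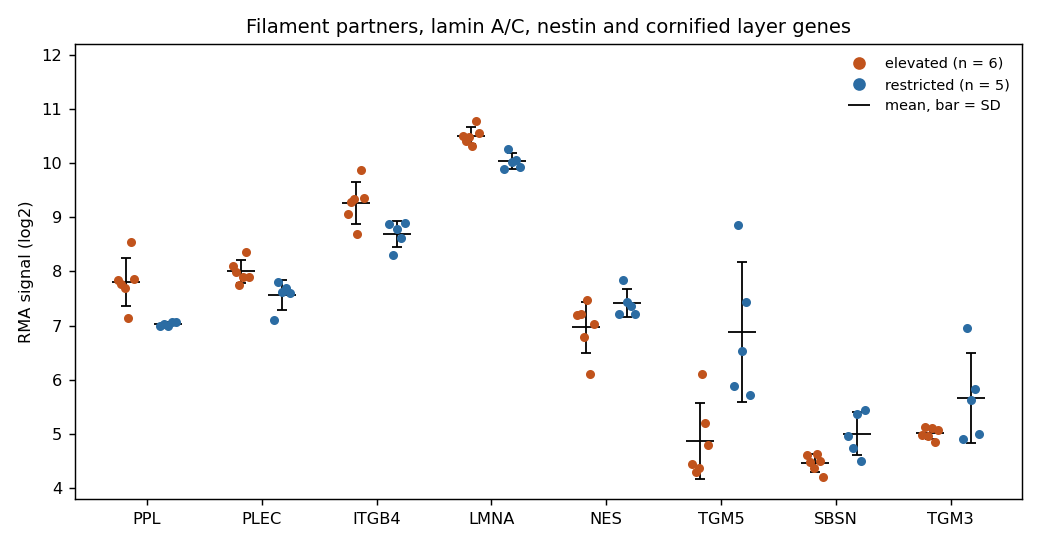
RMA signal (log2) of the 3 anchor genes, 2 other filament genes and 3 cornified layer genes with the smallest p in their lists, GFAP left out, 1 point per calf with the mean and SD of each diet. Elevated calves lie wholly above restricted calves for PPL and LMNA (groups do not overlap at 1.28% of all probe sets). The highest TGM5 points are restricted 2 (8.86) and restricted 4 (7.44).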

How the data were processed

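The deposited file holds log2 signals per probe set of 1-colour arrays for 11 calves. The authors made them by RMA, per the submitters' processing notes, with no version or settings given; the log2 scale was read from the values. Genes were named from the platform annotation, and 51 of the 52 keratins were found by gene number in the ARS-UCD2.0 table with 0 symbols changed. Limma 3.58.1 (R 4.3.3) was fitted to all 26773 probe sets with no filter or covariate and Benjamini-Hochberg adjustment at 0.05; SE is moderated. On simulated data with this comparison's spread over 26773 probe sets it recovered 83.6% of 67 probe sets changed 2-fold. It recovered 50.7% of 67 changed 1.5-fold and 90.9% of 66 changed 4-fold, with 7 false calls of 157 in all. The real comparison called 2 probe sets, so these shares may overstate recovery there. The changed probe sets were drawn from the whole array, where the median SD within diets is 0.22. Luminal and basal keratins have SDs of 0.51 to 1.18, so those shares do not hold for them. The spread is between calves. The number of arrays limits the precision.

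The members, lists and tests were chosen with earlier results of these data known. Named genes were all luminal and basal keratins, in each other keratin list the 2 brightest and the 3 with the smallest p, and in each partner list the 3 with the smallest p; KRT20 and KRT89 were named after their values were seen. Within-calf differences used exact permutation over all splits of the calves into groups of 6 and 5. Alternatives changed normalisation, filters, variance model, test, probe sets, replicate block and calves included. Figures were drawn with matplotlib 3.10.9.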

Additional observations from a re-analysis of the deposited data

Results flagged for a closer look

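Of 100 sets of values (1 gene, list mean or pair in 1 diet) checked for a calf far from the others of its diet, 2 held one, and chance gives about 1 in 20. Both were elevated 5. KRT71 stood at 5.33 in that calf, against 4.84 to 4.99 in the other elevated calves. GFAP stood at 6.16, against 5.02 to 5.17 in the other elevated calves. Elevated 5 also had the highest mean of 14 skeletal muscle markers (7.25, against 5.57 to 6.55 in the other elevated calves and 5.31 to 5.96 in restricted calves), a list in which 14 of 14 members were higher in elevated calves.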

How the results depend on the processing

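The count of 0 keratins past the threshold held under all 23 alternatives. Without restricted 2 and restricted 4 the basal median moved to -0.54. KRT8 minus KRT5 did not pass its threshold with all calves (0.77, exact permutation p = 0.0758). It passed at 1.08 without restricted 2 and restricted 4, and at 0.93 without them and elevated 5. It also passed at 0.91 without restricted 2 and elevated 5, a setting chosen after seeing the data. Each of these settings leaves out restricted 2, a calf through which the groups overlapped, so a smaller p follows from the choice of calves. Leaving out single calves gave 0.52 to 1.06 (adjusted exact p of 0.0143 to 0.167). KRT18 minus KRT14 kept its call under every alternative run except the replicate block, where it was 1.49 (adjusted exact p = 0.125, as 5 pairs cannot reach the threshold). For left-out calves the kept call follows from groups that do not overlap. Same-numbered calves share only a number: their deviations correlated at -0.15 to 0.21, and 1 of 10 calves correlated best with its own number. With the block 0 probe sets were called, against 2 without it. Over left-out calves the luminal median ran from 0.46 to 1.02, the basal from -0.29 to 0.40 and the hair median from -0.033 to 0.056. Quantile normalisation turned the sign of the small median of the hair keratins (-0.0088). With dim probe sets left out, KRT8, KRT14 and every skin, mucosa, hair and other keratin dropped out, so neither pair has a value there. Dim signal limits what can be read from these, KRT18 minus KRT14 included.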
